A study of Mus musculus with 24 samples.

Results

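The 37 genes described here encode the proteins that bring glucose into a cell, carry it through glycolysis, store part of it as glycogen and settle whether pyruvate leaves as lactate or enters the mitochondrion. They were taken by symbol, without regard to case, from the gene count tables of 3 transplanted mouse mammary carcinoma lines, and all 37 were among the 24034 symbols that the 3 tables share. In each line p27K high cells were compared with p27K negative cells of the same tumour. The p27K reporter is mVenus fused to a mutant form of p27, a protein that halts the cell cycle, and it builds up in cells that have left the cycle, so p27K high cells are called quiescent and p27K negative cells proliferating by the design. The groups were p27K high and p27K negative cells of 4T07, of D2A1 and of EMT6, with 4 tumours per line and 24 bulk libraries in all. Every group came from female Balb/cJ mice that had received 250000 cells of a line, transduced with mCherry and the reporter, into a mammary fat pad, and tumours were collected on day 14. Cells were stained for CD45, a blood cell marker, and with DAPI before sorting. Each line was sequenced in a run of its own, so that line and run cannot be told apart.

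In glycolysis, glucose enters through GLUT transporters, is trapped by hexokinases as glucose 6-phosphate and is split and oxidised to pyruvate, with phosphofructokinase as the main committed step. Lactate dehydrogenase turns pyruvate into lactate, which leaves through monocarboxylate transporters, whereas the mitochondrial pyruvate carrier and the pyruvate dehydrogenase complex feed it to the TCA cycle as acetyl-CoA. Pyruvate dehydrogenase kinases shut the complex off by phosphorylation and its phosphatases turn it on. Many genes of glucose uptake and glycolysis are textbook targets of hypoxia-inducible factors, which are active when oxygen is scarce, as it often is in solid tumours.

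Libraries held 27887221 to 45460880 counts in 4T07 p27K high cells, against 28961831 to 35197694 in p27K negative cells. The range was 6727594 to 20174767 counts in D2A1 p27K high cells, against 1335433 to 15641189 in p27K negative cells. For EMT6 it was 13769682 to 20142013 counts in p27K high cells, against 16988365 to 17508301 in p27K negative cells. Mki67, a proliferation marker, averaged 19.8 ± 7.27, 17.1 ± 6.47 and 13.0 ± 1.65 CPM (SD, n = 4 tumours each) in p27K high cells of 4T07, D2A1 and EMT6, against 1719 ± 238, 982 ± 103 and 516 ± 46.8 CPM in p27K negative cells, so the gates separated as labelled. CPM are counts scaled within each line to a common library size, by the TMM method. The summed level of 12 macrophage markers was 83.6 to 114 CPM in p27K high against 418 to 1006 CPM in p27K negative cells of 4T07, 9.88 to 26.4 against 15.6 to 53.8 CPM in D2A1, and 34.2 to 44.4 against 24.9 to 32.9 CPM in EMT6. The 8 fibroblast and pericyte markers summed to 1515 to 2296 CPM in p27K high against 589 to 772 CPM in p27K negative cells of 4T07, 885 to 1098 against 675 to 865 CPM in D2A1 and 6147 to 8117 against 4858 to 6471 CPM in EMT6, and the sum was higher in p27K high cells in all 12 tumours. Of 7 tested in each line, 3 rose and 1 fell in 4T07, 2 rose and 3 fell in D2A1, and 6 rose and 0 fell in EMT6, with Pdgfra and Pdgfrb up in each line and Pdpn down in 4T07 and D2A1. The 5 endothelial markers summed to 1.62 to 3.77 CPM in p27K high against 6.89 to 12.1 CPM in p27K negative cells of 4T07, 0.306 to 3.63 against 8.30 to 25.2 CPM in D2A1 and 0.848 to 6.06 against 1.50 to 12.8 CPM in EMT6, lower in p27K high cells in all 12 tumours. Of 8 mammary epithelial markers, 5 averaged under 1 CPM over the 8 libraries of 4T07, 1 in D2A1 and 3 in EMT6. Their sum was 434 to 572 CPM in p27K high against 566 to 688 CPM in p27K negative cells of 4T07. It was 93.3 to 205 against 63.5 to 471 CPM in D2A1 and 607 to 863 against 751 to 1043 CPM in EMT6. The sum was lower in p27K high cells in all 4 tumours of 4T07 and of EMT6, and higher in 2 of 4 in D2A1. Krt8 and Krt18 had the highest averages in every line, and the adhesion gene Cdh1 averaged at most 0.26 CPM in either gate of EMT6.

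Most of the 37 genes were higher in the p27K high cells of all 3 lines. A change was called at an adjusted p under 0.05 in edgeR's quasi-likelihood test over all genes, with the tumour as a block. In 4T07, 35 of the 37 genes had enough counts to be tested, 22 rose and 3 fell, while 22.1% of all tested genes rose and 23.6% fell. In D2A1, 34 were tested, 21 rose and 2 fell, against 14.9% and 14.7% of all genes. In EMT6, 35 were tested, 26 rose and 4 fell, against 24.1% and 25.1% of all genes. The median log2 change of the tested members was 0.49 in 4T07, 0.62 in D2A1 and 0.46 in EMT6, beside -0.0033, 0.022 and 0.018 for all genes. Scaling by total count alone moved the median of all 4T07 genes to -0.14 and the share of rises among all calls there to 33.2%, against 48.4% with TMM scaling. Then 20 members rose and 5 fell in 4T07, while 1908 of all 12849 tested genes rose and 3844 fell. For the average change over the 3 lines, all 37 were tested, 25 rose and 4 fell, against 28.3% and 24% of all genes. Of these, Pygl and Pdk4 had enough counts for a test in only 1 line, and Slc2a3, Eno1 and Ldhb in 2. Pygl was among the 4 falls, and its call was lost without D2A1 tumour 4 (adjusted p = 0.14). The average changes of Pdk4, Slc2a3, Eno1 and Ldhb were not called. In bulk libraries fewer expressing cells and less RNA per cell cannot be told apart, so each value below is a level per gate and not per cell.

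Of the 32 members tested in all 3 lines, 19 rose in each of them, which is 59.4% where 6.41% of all genes tested in the 3 lines did so. The 19 were Slc2a1, Hk1, Hk2, Gpi1, Pfkl, Pfkm, Pfkp, Aldoa, Tpi1, Gapdh, Pgk1, Eno2, Pkm, Ldha, Pdk1, Pdk2, Pgm2, Gys1 and Gbe1. They cover every step from glucose entry to lactate with at least 1 isozyme except phosphoglycerate mutase, whose gene Pgam1 rose in 2 lines, and lactate export. The summed fibroblast and pericyte markers were higher in p27K high cells of the same 12 tumours, and their part in these rises was not tested. Leaving out a tumour ended a call of Gapdh, Pfkm and Pdk2 in 4T07 and of Pkm, Pdk2 and Gbe1 in D2A1, and a fit without the tumour block ended those of Pfkm in 4T07 and of Pfkp and Tpi1 in EMT6.

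**Figure D1:**
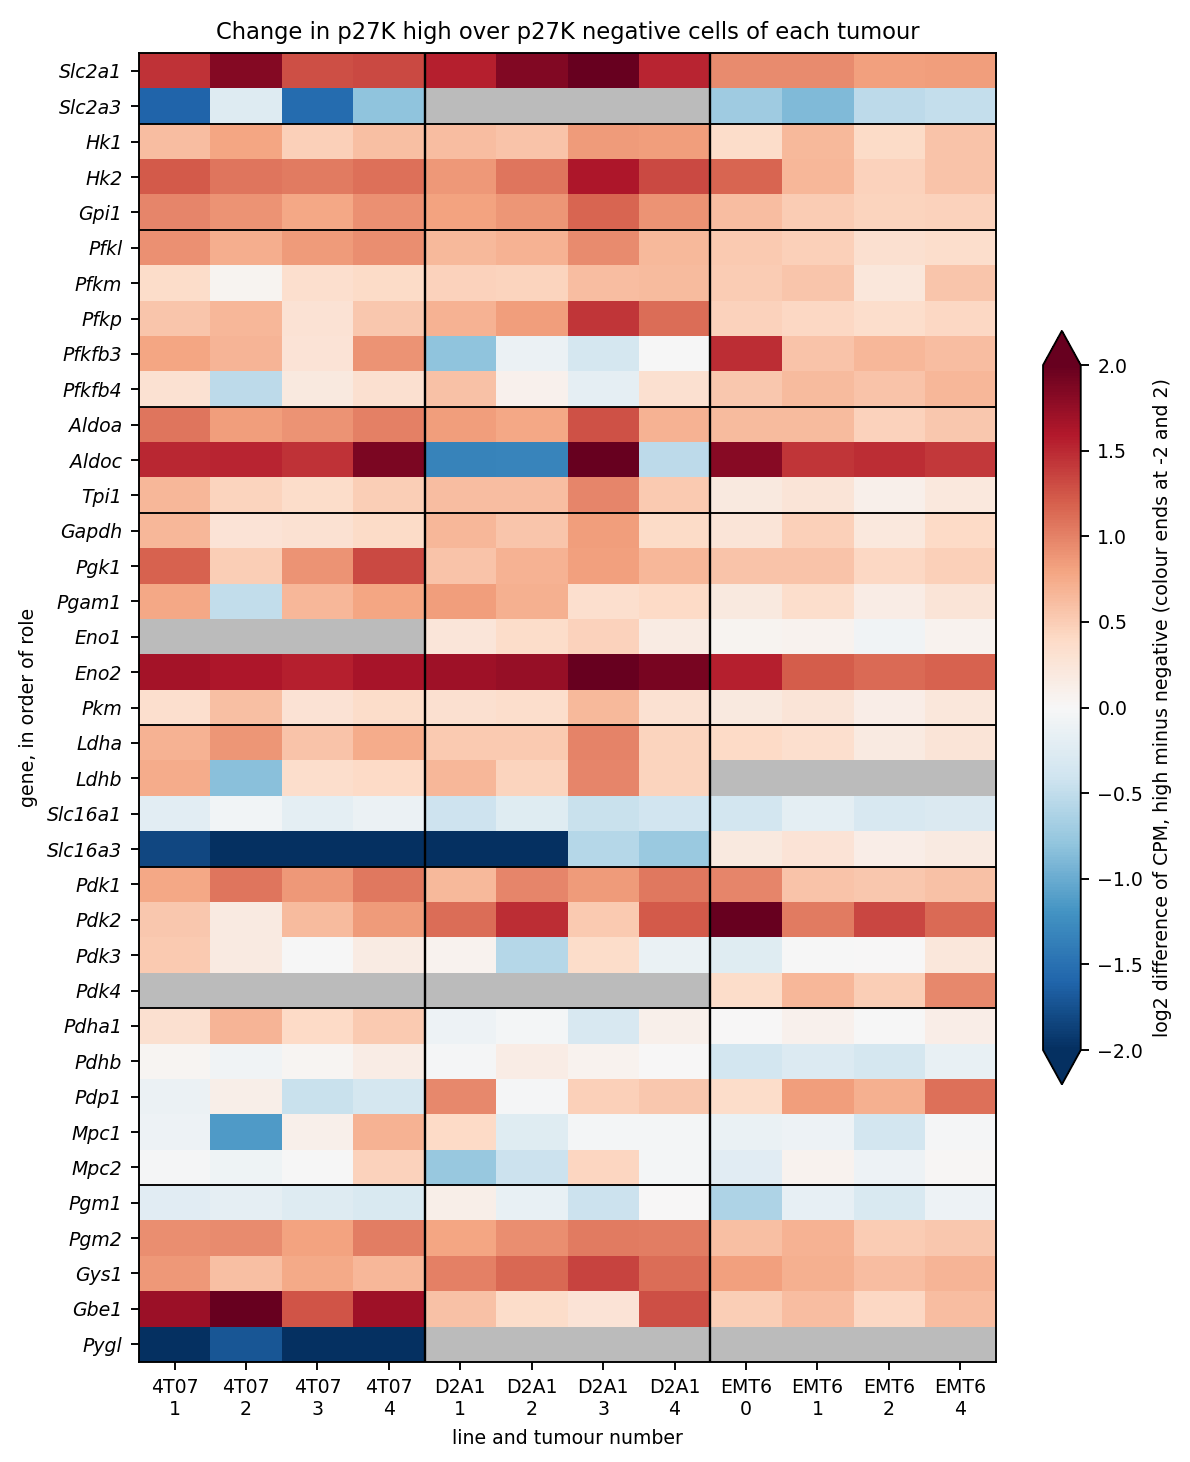
Log2 difference of CPM between p27K high and p27K negative cells (colour, red for higher in p27K high) for the 37 genes in rows by role and the 12 tumours in columns by line and tumour number. Grey marks genes with too few counts to be tested in that line. Red runs through the upper rows, with Slc2a1 and Eno2 dark in 4T07 and D2A1, while Slc16a1 is pale blue in all 12 tumours and Slc16a3 is dark blue in 4T07 and pale red in EMT6.

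Slc2a1, which encodes the transporter GLUT1 (chr4:119108711-119137983 on GRCm38, plus strand), was among the largest rises in every line. In 4T07 tumours 1 to 4 it had 958, 899, 664 and 594 CPM in p27K high cells, against 352, 251, 271 and 237 CPM in p27K negative cells. The D2A1 tumours had 820.2, 1135, 1057 and 725 CPM in p27K high cells, against 281, 314, 235 and 251 CPM in p27K negative cells. The EMT6 tumours, numbered 0, 1, 2 and 4, had 795, 896, 967 and 769 CPM in p27K high cells, against 412, 463, 549 and 429 CPM in p27K negative cells. The lowest p27K high library stood above the highest p27K negative library in each line. The log2 change was 1.48 ± 0.11 in 4T07 (adjusted p = 5.15e-05), 1.77 ± 0.13 in D2A1 (adjusted p = 3.78e-07) and 0.89 ± 0.04 in EMT6 (adjusted p = 2.59e-07), each with its SE. These changes differed between lines (adjusted p = 0.00115), and that of D2A1 exceeded that of EMT6 by 0.94 on the log2 scale. Differences between lines come from a joint fit of all 24 libraries, so they need not equal the gap between the values fitted per line.

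Slc2a3, the gene of the high-affinity transporter GLUT3, was scarce. Its level in 4T07 was 0.464, 0.648, 0.530 and 0.729 CPM in p27K high cells, against 1.43, 0.778, 1.57 and 1.29 CPM in p27K negative cells. In EMT6 it was 3.10, 1.99, 2.74 and 3.20 CPM in p27K high cells, against 5.09, 3.70, 3.98 and 4.44 CPM in p27K negative cells. It fell in both lines, by 1.08 ± 0.37 and 0.64 ± 0.16 on the log2 scale (SE), and had too few counts for a test in D2A1. The 4T07 call (adjusted p = 0.0467) was lost when tumour 1, 3 or 4 was left out, in DESeq2 (adjusted p = 0.058), with DESeq2's size factors in edgeR (adjusted p = 0.0504) and with no filter on low counts (adjusted p = 0.0633). The 12 macrophage markers fell with Slc2a3 in 4T07 (all 12 called). In EMT6 their sum was higher in p27K high cells in all 4 tumours. Their part in either fall of Slc2a3 was not tested. On the scale of CPM per kilobase of exon, Slc2a1 was at 239 and Slc2a3 at 0.150 in 4T07 p27K high cells, against 85.2 and 0.320 in p27K negative cells.

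Both hexokinase genes rose, Hk2 more than Hk1. Hexokinase 2 (Hk2, chr6:82725025-82774454, minus strand) is the inducible isozyme of insulin-sensitive tissue and tumours, and hexokinase 1 the widely expressed one. Hk2 in 4T07 had 595, 479, 535 and 443 CPM in p27K high cells, against 254, 229, 259 and 205 CPM in p27K negative cells. In D2A1 it had 145, 196, 159.5 and 159 CPM in p27K high cells, against 79.4, 92.6, 52.0 and 63.7 CPM in p27K negative cells, and no p27K high library overlapped the p27K negative range in either line. In EMT6 it had 299.9, 320.2, 260.3 and 279 CPM in p27K high cells, against 133, 202, 190.0 and 188 CPM in p27K negative cells, where tumour 0 had both the lowest p27K negative level and the widest gap. The log2 changes of Hk2 were 1.11 ± 0.07, 1.22 ± 0.13 and 0.71 ± 0.10 in 4T07, D2A1 and EMT6 (SE; adjusted p = 2.98e-05, 1.74e-05 and 0.000315).

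Hk1 had 195 to 234 CPM in p27K high against 128 to 153 CPM in p27K negative cells of 4T07, 176 to 216 against 98.0 to 145 CPM in D2A1, and 286 to 368 against 221 to 251 CPM in EMT6. Its log2 changes of 0.62 ± 0.08, 0.72 ± 0.11 and 0.49 ± 0.06 (SE) were all called. Within a library the read ratio of Hk2 to Hk1 was 2.10 to 2.72 in p27K high against 1.60 to 1.83 in p27K negative cells of 4T07, and 0.747 to 0.907 against 0.532 to 0.641 in D2A1, with no overlap between gates. In EMT6 it was 0.760 to 1.05 against 0.604 to 0.904, and only tumour 0 moved by more than 0.1 on the log2 scale. Over the 12 tumours the log2 ratio was higher in p27K high cells by 0.41 ± 0.28 (SD), in 11 of 12 tumours (exact two-sided sign-flip permutation test, p = 0.000977, adjusted over 19 pairs of genes 0.00265). Per kilobase of exon, Hk2 stood above Hk1 in 4T07 (91.4 and 44.0 CPM per kilobase in p27K high cells, 42.2 and 28.6 in p27K negative cells) and below it in D2A1 and EMT6 in both gates.

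Gpi1, phosphoglucose isomerase, rose in each line, with 971, 759, 822 and 762 CPM in p27K high cells, against 492, 408, 484 and 403 CPM in p27K negative cells in 4T07. The gates were as far apart in D2A1, with 608, 672, 709 and 669 CPM in p27K high cells, against 349.7, 365, 316 and 359 CPM in p27K negative cells. In EMT6 the gap was narrower, with 927, 920.2, 923 and 875 CPM in p27K high cells, against 601, 648, 679 and 633 CPM in p27K negative cells. The log2 changes were 0.89 ± 0.07, 0.93 ± 0.11 and 0.51 ± 0.04 (SE), and differed between lines (adjusted p = 0.0109).

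All 3 subunit genes of phosphofructokinase 1 rose in every line, and the order of their changes was not the same in each line. The liver-type subunit Pfkl had 343, 220.4, 323 and 277 CPM in p27K high cells, against 181, 134, 178 and 145 CPM in p27K negative cells in 4T07. In D2A1 Pfkl had 440.5, 464, 557 and 481 CPM in p27K high cells, against 279.9, 287, 289 and 307 CPM in p27K negative cells. In EMT6 Pfkl had 646, 666, 653 and 675 CPM in p27K high cells, against 448, 479.8, 524 and 528 CPM in p27K negative cells. Its log2 change was highest in 4T07, at 0.86 ± 0.08, next to 0.73 ± 0.11 in D2A1 and 0.42 ± 0.05 in EMT6 (SE), and the gates did not overlap in any line. The platelet-type subunit Pfkp had 192, 189.6, 158 and 164 CPM in p27K high cells, against 131, 119, 129 and 113 CPM in p27K negative cells in 4T07. In D2A1 Pfkp had 95.5, 104, 86.4 and 84.6 CPM in p27K high cells, against 58.6, 58.5, 32.1 and 39.1 CPM in p27K negative cells. In EMT6 Pfkp had 241, 396, 359.7 and 385 CPM in p27K high cells, against 175, 296, 282 and 290.4 CPM in p27K negative cells, where tumour 0 was low in both gates, so that the gates overlapped although each tumour was higher in p27K high cells. Its log2 changes were 0.51 ± 0.09, 1.01 ± 0.14 and 0.41 ± 0.04 (SE), and that of D2A1 exceeded those of 4T07 and EMT6 by 0.53 (adjusted p = 0.0117) and 0.66 (adjusted p = 0.0135). The muscle-type Pfkm moved by 0.29 ± 0.09, 0.54 ± 0.11 and 0.46 ± 0.07 (SE), and its 4T07 call was lost when tumour 1, 3 or 4 was left out, without the tumour block (adjusted p = 0.0911) and with total-count scaling (adjusted p = 0.244). The EMT6 call of Pfkp was lost without the tumour block (adjusted p = 0.127). The ratio of Pfkp to Pfkl shifted by -0.34, 0.28 and -0.0085 log2 units in 4T07, D2A1 and EMT6, and by -0.024 ± 0.31 (SD) over the 12 tumours, upward in 6 tumours and downward in 6 (exact sign-flip permutation test, p = 0.835).

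The PFKFB enzymes make and break fructose 2,6-bisphosphate, the strongest activator of phosphofructokinase 1. Pfkfb3 rose in 4T07, with 123, 129, 61.5 and 117 CPM in p27K high cells, against 71.0, 80.8, 51.0 and 63.1 CPM in p27K negative cells, and the low p27K high library of tumour 3 made the gates overlap. It rose too in EMT6, with 94.3, 52.6, 52.7 and 64.5 CPM in p27K high cells, against 34.0, 35.4, 33.4 and 42.2 CPM in p27K negative cells. In D2A1 it had 6.37, 6.07, 4.33 and 6.66 CPM in p27K high cells, against 11.1, 6.55, 5.54 and 6.72 CPM in p27K negative cells, and its log2 change of -0.27 ± 0.25 (SE) was not called (adjusted p = 0.457). The changes of the 3 lines differed (adjusted p = 0.0403), that of 4T07 from that of D2A1 by 0.85 (adjusted p = 0.0369). Pfkfb4 rose in EMT6 by 0.61 ± 0.12 (SE). In 4T07 its p27K high library of tumour 2 was the lowest of its gate, with 15.1, 7.86, 14.5 and 14.7 CPM in p27K high cells, against 12.3, 11.3, 12.7 and 11.8 CPM in p27K negative cells. That p27K high library detected 13500 genes where the other 4T07 p27K high libraries detected 15094 to 15370, and without tumour 2 the Pfkfb4 change was 0.27 (adjusted p = 0.0268).

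Aldoa, the main aldolase, rose by 0.95 ± 0.08, 0.89 ± 0.13 and 0.57 ± 0.04 on the log2 scale (SE) in 4T07, D2A1 and EMT6. It had 2133, 1431, 1772 and 1679 CPM in p27K high cells, against 1020.0, 805, 955 and 833 CPM in p27K negative cells in 4T07. The D2A1 libraries had 1518, 1649, 1887 and 1664 CPM in p27K high cells, against 852, 966, 783 and 1031 CPM in p27K negative cells. In EMT6 there were 2074, 2281, 2316 and 2154 CPM in p27K high cells, against 1333, 1476, 1674 and 1484 CPM in p27K negative cells. The gates did not overlap in any of the 3 lines. The annotation holds a further entry of the symbol Aldoa at the same place, and how reads shared between both were counted is not given in the sources used here.

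Aldoc, the aldolase best known from brain, changed more but in 2 lines. It had 36.3, 30.6, 34.0 and 36.5 CPM in p27K high cells, against 12.8, 10.6, 12.4 and 9.91 CPM in p27K negative cells in 4T07. The EMT6 libraries had 92.8, 121, 106 and 118 CPM in p27K high cells, against 26.3, 44.8, 38.4 and 44.0 CPM in p27K negative cells. Those are log2 changes of 1.59 ± 0.11 (adjusted p = 4.13e-05) and 1.53 ± 0.07 (adjusted p = 2.00e-07). In D2A1 it was scarce, with 0.853, 1.65, 1.24 and 0.606 CPM in p27K high cells, against 2.23, 4.21, 0 and 0.896 CPM in p27K negative cells, and its change was not called (adjusted p = 0.402). Triose phosphate isomerase, Tpi1, rose by 0.49 ± 0.08, 0.68 ± 0.12 and 0.19 ± 0.04 (SE), with gates that overlapped in EMT6 alone, where the call was lost without the tumour block (adjusted p = 0.0734).

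In lower glycolysis Eno2 stood out. Eno2 encodes the gamma subunit of enolase, used as a marker of neurons and neuroendocrine cells, and lies at chr6:124760053-124769673 (minus strand). In 4T07 it had 209, 126, 170.5 and 126 CPM in p27K high cells, against 65.7, 41.4, 57.7 and 40.0 CPM in p27K negative cells. The D2A1 libraries had 250.1, 283, 318 and 296 CPM in p27K high cells, against 77.2, 84.2, 68.6 and 79.5 CPM in p27K negative cells. Its EMT6 levels were 261, 286, 293 and 314 CPM in p27K high cells, against 88.6, 123, 133 and 139.6 CPM in p27K negative cells. The gates did not overlap in any line, and the log2 changes were 1.62 ± 0.07, 1.89 ± 0.13 and 1.27 ± 0.07 (SE), or folds of 3.08, 3.70 and 2.41. They differed between lines (adjusted p = 0.00484), that of D2A1 exceeding that of EMT6 by 0.67.

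Eno1, the common alpha enolase, was not called in EMT6 and lay close to the threshold in D2A1. Its D2A1 levels were 1355, 1503, 1500.0 and 1415 CPM in p27K high cells, against 1145, 1171, 1093 and 1262 CPM in p27K negative cells. EMT6 had 1086, 1189, 1098 and 1158 CPM in p27K high cells, against 1045, 1126, 1155 and 1097 CPM in p27K negative cells. Its log2 changes of 0.31 ± 0.11 and 0.035 ± 0.04 (SE) were not called (adjusted p = 0.0553 and 0.523), although the D2A1 gates did not overlap. The D2A1 change was called without the tumour block (adjusted p = 0.0339), in DESeq2 (0.0419), with no filter on low counts (0.00944), with a filter of at least 5 CPM in 4 libraries (0.047) and without tumour 3 (0.012). The ratio of Eno2 to Eno1 reads was 0.184 to 0.212 in p27K high against 0.0630 to 0.0721 in p27K negative cells of D2A1 and 0.241 to 0.272 against 0.0848 to 0.127 in EMT6. Over these 8 tumours the log2 ratio was higher in p27K high cells by 1.41 ± 0.25 (SD), in 8 of 8, which gives 0.0078, the smallest p that exact sign flips of 8 tumours allow. In 4T07 Eno1 held 0 to 3 counts in any library while the near-identical gene Eno1b held 1199 to 2677, or 99.9% of the reads of both, so the 4T07 table cannot speak for alpha enolase. That share was 19.0% in D2A1 and 22.2% in EMT6. The count of Eno1b rose by 0.35 ± 0.11 in 4T07 and 0.46 ± 0.13 in D2A1 (SE; adjusted p = 0.0313 and 0.0189), and its change in EMT6 was 0.014 ± 0.04 (not called). Per kilobase of exon, Eno1 still exceeded Eno2 in p27K high cells, with 567 and 103 CPM per kilobase in D2A1 and 445 and 103 in EMT6.

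The other lower glycolytic enzymes rose by less. Pgk1, phosphoglycerate kinase, which makes the first ATP of the path, rose by 0.97 ± 0.14, 0.69 ± 0.11 and 0.51 ± 0.04 (SE). Gapdh, the dehydrogenase before it, rose by 0.40 ± 0.09, 0.61 ± 0.12 and 0.34 ± 0.05, and its 4T07 call was lost without tumour 1 (log2 0.32, adjusted p = 0.0589). Pkm, pyruvate kinase, rose by 0.40 ± 0.08, 0.41 ± 0.12 and 0.20 ± 0.04, and was the most abundant of the measured enzymes of the path per kilobase of exon in 4T07 and D2A1, at 1252 and 1858 CPM per kilobase in p27K high cells, against 944 and 1401 in p27K negative cells. Its D2A1 call was lost without tumour 1 (adjusted p = 0.104) or 2 (adjusted p = 0.111). The counts do not separate its M1 and M2 splice forms. Pgam1, phosphoglycerate mutase, rose in D2A1 and EMT6. In 4T07 its level was 108, 37.5, 97.6 and 86.2 CPM in p27K high cells, against 63.1, 53.0, 61.8 and 49.9 CPM in p27K negative cells, and the log2 change of 0.44 ± 0.21 (adjusted p = 0.128) was 0.74 without tumour 2 (adjusted p = 3.25e-06), and was called in DESeq2 (adjusted p = 0.0493). Gapdh, Pgk1 and Pgam1 have many near-identical pseudogenes, and how the authors counted reads shared with them is not given in the sources used here.

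**Figure D2:**
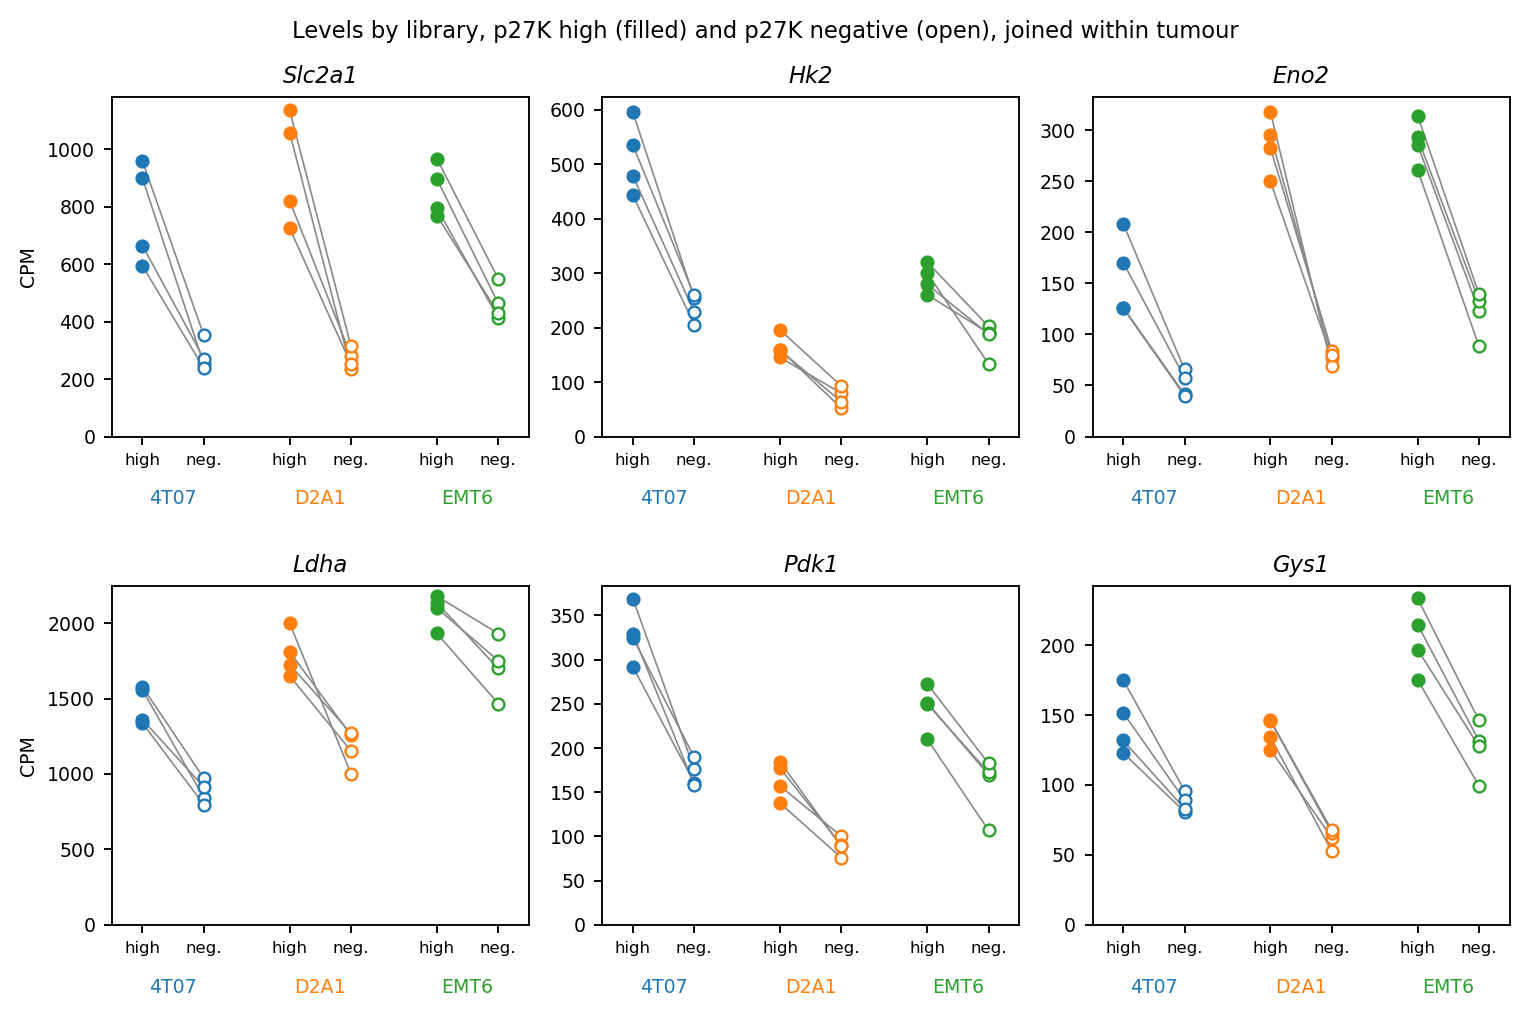
CPM of Slc2a1, Hk2, Eno2, Ldha, Pdk1 and Gys1 in every library on linear axes from 0, p27K high (filled) left of p27K negative (open) in each line, with a line joining both gates of a tumour. In all 12 tumours each of the 6 genes was higher in p27K high cells, and the gates did not overlap in any line.

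4 stretches of promoter sequence are shown because these members rose together in every line while the stretches differ in a motif. The core of a hypoxia response element is ACGTG or GCGTG. Hk2 and Pgk1 hold 2 copies of ACGTG in the 250 bases before their start, whereas the windows of Eno2 and Gbe1 hold neither form on either strand. Sequences are those of RefSeq on GRCm38.p6, written from 5′ to 3′ on the strand of the gene, and capitals mark each match on either strand, so that CACGT is ACGTG read from the other strand. The windows are chr6:82774455-82774704 (minus strand) for Hk2, chrX:106186850-106187099 (plus strand) for Pgk1, chr6:124769674-124769923 (minus strand) for Eno2 and chr16:70313699-70313948 (plus strand) for Gbe1.
Hk2: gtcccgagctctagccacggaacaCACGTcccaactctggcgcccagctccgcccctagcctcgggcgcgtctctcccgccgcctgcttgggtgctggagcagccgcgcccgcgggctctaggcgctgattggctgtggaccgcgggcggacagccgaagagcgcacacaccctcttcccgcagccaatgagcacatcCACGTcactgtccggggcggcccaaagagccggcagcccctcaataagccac
Pgk1: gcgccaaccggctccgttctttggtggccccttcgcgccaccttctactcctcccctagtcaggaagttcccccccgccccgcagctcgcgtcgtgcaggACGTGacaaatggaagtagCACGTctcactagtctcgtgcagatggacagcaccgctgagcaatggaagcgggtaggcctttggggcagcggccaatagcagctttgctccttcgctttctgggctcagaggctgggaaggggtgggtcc
Eno2: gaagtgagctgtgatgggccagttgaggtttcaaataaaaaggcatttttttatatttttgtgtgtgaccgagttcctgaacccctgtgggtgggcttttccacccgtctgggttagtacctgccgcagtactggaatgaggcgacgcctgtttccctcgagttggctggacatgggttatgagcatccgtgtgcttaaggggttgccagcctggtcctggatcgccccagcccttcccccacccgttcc
Gbe1: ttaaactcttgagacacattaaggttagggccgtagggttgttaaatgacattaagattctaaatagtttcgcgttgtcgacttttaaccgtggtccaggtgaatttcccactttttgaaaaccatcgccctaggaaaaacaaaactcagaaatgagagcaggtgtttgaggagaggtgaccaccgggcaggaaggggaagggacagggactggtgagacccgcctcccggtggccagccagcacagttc

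Of 35 members with a RefSeq window, 30 (85.7%) held ACGTG or GCGTG in at least 1 window, beside 41.5% of 27025 genes, and ACGTG alone was in 17 members (48.6%), beside 18.5% of genes. Among the 24 members that rose on average 19 (79.2%) held either form, and among the other 11 all 11 did. Slc16a3, which fell in 4T07 and D2A1, where its level was low, and rose slightly in EMT6, held 2 copies of ACGTG. The bases of the windows (both forms hold the dinucleotide CG) were not matched between members and other genes. The number of windows per gene was not matched either, and more windows give more chances of a match. A match is a stretch of letters and was not tested for binding.

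The lactate end of the path split. Ldha, the lactate dehydrogenase subunit that favours lactate (chr7:46841475-46855627, plus strand), had 1578, 1557, 1360.0 and 1337 CPM in p27K high cells, against 972, 843, 914 and 796 CPM in p27K negative cells in 4T07. D2A1 had 1650.0, 1810.0, 1999 and 1725 CPM in p27K high cells, against 1153, 1256, 1001 and 1270.0 CPM in p27K negative cells. The EMT6 levels were 1932, 2135, 2179 and 2100.0 CPM in p27K high cells, against 1467, 1700.0, 1931 and 1752 CPM in p27K negative cells. It rose by 0.73 ± 0.08, 0.62 ± 0.12 and 0.29 ± 0.04 on the log2 scale (SE), with gates that overlapped in none of the 3 lines, although in EMT6 the highest p27K negative library and the lowest p27K high library were almost level. Ldhb, the subunit that favours pyruvate, rose in D2A1. It had 55.0 to 86.3 CPM in p27K high against 37.1 to 45.9 CPM in p27K negative cells of D2A1, where it rose by 0.62 ± 0.13 (SE), 1.50 to 5.90 against 2.31 to 4.62 CPM in 4T07, where its change was called only without tumour 2 (adjusted p = 0.0273), and at most 0.46 CPM in any EMT6 library. Per kilobase of exon Ldha exceeded Ldhb by far in D2A1 p27K high cells, at 948 and 50.4 CPM per kilobase, and their log2 ratio moved by -0.0092 ± 0.093 (SD, n = 4 tumours) between gates.

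The genes of the lactate exporters did not rise with Ldha, apart from a small rise of Slc16a3 in EMT6. Slc16a1, which encodes MCT1, a carrier of lactate in both directions, had 215, 248, 259 and 265 CPM in p27K high cells, against 249, 258, 296 and 287 CPM in p27K negative cells in 4T07. The D2A1 levels were 209, 218, 190.3 and 234 CPM in p27K high cells, against 278, 256, 259.6 and 304 CPM in p27K negative cells. In EMT6 it had 452, 563, 564 and 553 CPM in p27K high cells, against 586, 646, 703 and 675 CPM in p27K negative cells. It was lower in p27K high cells in all 12 tumours. Its log2 change was -0.14 ± 0.07 in 4T07, which was not called (adjusted p = 0.142), -0.37 ± 0.11 in D2A1 and -0.30 ± 0.04 in EMT6, where it fell (SE; adjusted p = 0.0215 and 0.000421). The D2A1 call was lost when tumour 1, 2 or 4 was left out and with no filter on low counts (adjusted p = 0.135). The 4T07 change was called with total-count scaling (adjusted p = 0.0143) and without tumour 2 (adjusted p = 0.0185). The average over the lines fell by 0.24 ± 0.04 (SE; adjusted p = 0.000184).

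Slc16a3 encodes MCT4, the exporter of glycolytic cells, and its change had opposite signs in the lines. The EMT6 libraries had 253, 313, 316 and 337 CPM in p27K high cells, against 220.1, 259, 289 and 299 CPM in p27K negative cells. In 4T07 there were 2.46, 1.01, 1.55 and 2.38 CPM in p27K high cells, against 8.75, 12.8, 17.1 and 13.9 CPM in p27K negative cells. In D2A1 there were 1.05, 2.27, 1.85 and 1.32 CPM in p27K high cells, against 4.46, 10.8, 2.77 and 2.24 CPM in p27K negative cells. Each EMT6 tumour was slightly higher in p27K high cells with overlapping gates, each 4T07 and D2A1 tumour lower, and the 4T07 gates did not overlap. The log2 change was 0.20 ± 0.04 in EMT6 (SE, adjusted p = 0.00493), -2.81 ± 0.31 in 4T07 (adjusted p = 0.0004) and -1.45 ± 0.41 in D2A1 (adjusted p = 0.0171). The difference between lines had an adjusted p of 1.13e-05, the smallest of the 37 genes. The EMT6 change was not called without the tumour block (log2 0.19, adjusted p = 0.223), and the D2A1 change was lost without tumour 1 (adjusted p = 0.0633) or 2 (adjusted p = 0.171).

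In 4T07 the macrophage markers moved with Slc16a3. Their summed level in tumours 1 to 4 was 99.7, 114, 83.6 and 112 CPM in p27K high cells, against 418, 553, 1006 and 610.0 CPM in p27K negative cells. Within the p27K negative gate tumour 3 had the highest sum and the highest Slc16a3 level. Within the p27K high gate tumour 2 had the highest sum and the lowest Slc16a3 level (1.01 CPM). In D2A1 the sums were 9.88, 12.6, 16.4 and 26.4 CPM in p27K high cells, against 15.6, 53.8, 28.2 and 28.4 CPM in p27K negative cells. There tumour 2 was highest in both measures in the p27K negative gate. Tumour 1 had the lowest sum of that gate and more Slc16a3 (4.46 CPM, 6 counts) than tumours 3 and 4. Within the p27K high gate tumour 4 had the highest sum and tumour 2 the highest Slc16a3 level. The neutrophil markers summed to 18.6 to 58.8 CPM in p27K high against 59.8 to 74.0 CPM in p27K negative cells of 4T07. For D2A1 the neutrophil sum was 5.02 to 8.81 against 2.11 to 4.43 CPM, higher in p27K high cells in all 4 tumours. Of the macrophage markers, 6 were tested in D2A1 and 0 were called. The part of these cells in the fall of Slc16a3 was not tested. In EMT6 the macrophage sum was higher in p27K high cells in all 4 tumours.

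**Figure D3:**
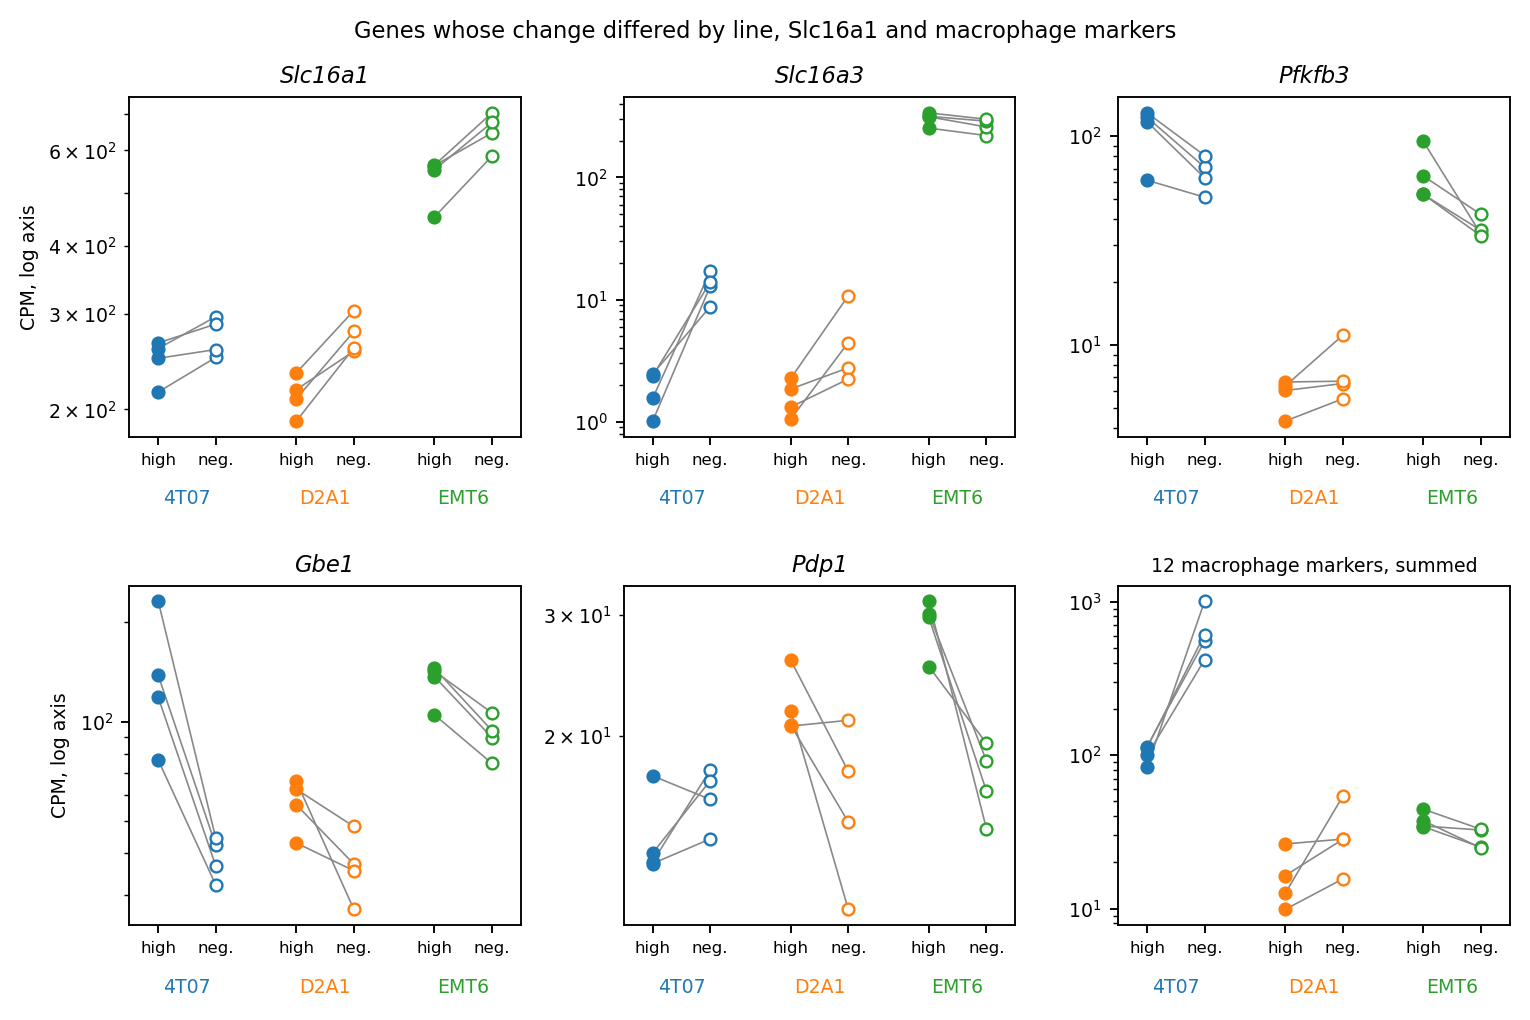
CPM on log axes in every library of Slc16a1, Slc16a3, Pfkfb3, Gbe1 and Pdp1, and the summed CPM of 12 macrophage markers, with p27K high (filled) left of p27K negative (open) in each line and both gates of a tumour joined. Slc16a3 and the macrophage sum were lower in all 4 p27K high libraries of 4T07 and higher in those of EMT6, each against the p27K negative library of its tumour. CPM are scaled within each line.

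Pdk1 rose in every line. Pyruvate dehydrogenase kinase 1 (Pdk1, chr2:71873224-71903858, plus strand) had 325, 369, 292 and 329 CPM in p27K high cells, against 189.6, 176, 161 and 158 CPM in p27K negative cells in 4T07. In D2A1 it had 157, 177, 138 and 184 CPM in p27K high cells, against 100.2, 89.8, 75.8 and 88.7 CPM in p27K negative cells. The EMT6 libraries had 210.1, 251, 249.9 and 273 CPM in p27K high cells, against 107, 169, 172 and 182 CPM in p27K negative cells. The gates did not overlap, and the log2 changes of 0.94 ± 0.08, 0.89 ± 0.12 and 0.66 ± 0.07 (SE) were not called different between lines (adjusted p = 0.145). Pdk2, the widely expressed kinase, rose as well, on few reads. It had 5.35 to 8.94 CPM in p27K high against 4.73 to 5.06 CPM in p27K negative cells of 4T07, 6.62 to 11.3 against 2.34 to 6.64 CPM in D2A1, where the gates just overlapped, and 1.50 to 3.43 against 0.576 to 0.936 CPM in EMT6. Its log2 changes were 0.55 ± 0.16, 1.10 ± 0.25 and 1.48 ± 0.27 (SE), and leaving out tumour 1, 3 or 4 ended the 4T07 call, as leaving out tumour 4 did in D2A1 and total-count scaling in 4T07 (adjusted p = 0.0915).

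Pdk3 was not called in any line. It had 33.2, 33.1, 27.8 and 28.6 CPM in p27K high cells, against 23.0, 29.2, 27.8 and 25.5 CPM in p27K negative cells in 4T07, and its gates overlapped there as in the other lines. The D2A1 libraries had 37.3, 32.0, 34.9 and 33.5 CPM in p27K high cells, against 35.6, 47.7, 27.1 and 36.7 CPM in p27K negative cells, and in EMT6 42.4, 57.5, 58.9 and 63.6 CPM in p27K high cells, against 50.1, 57.8, 58.3 and 54.6 CPM in p27K negative cells. Its log2 changes were 0.22 ± 0.11, -0.10 ± 0.16 and 0.00058 ± 0.07 (SE). The Pdk1 to Pdk3 read ratio was 9.78 to 11.5 in p27K high against 5.78 to 8.24 in p27K negative cells of 4T07, 3.93 to 5.53 against 1.88 to 2.79 in D2A1 and 4.24 to 4.96 against 2.13 to 3.34 in EMT6. It was higher in p27K high cells by 0.78 ± 0.39 log2 units (SD), in 12 of 12 tumours (exact sign-flip permutation test, p = 0.000488, the smallest 12 tumours allow, adjusted over 19 pairs 0.00155). Pdk4, the kinase known from fasting, had enough counts for a test in EMT6 alone, at 9.95 to 27.5 CPM in p27K high against 7.67 to 17.3 CPM in p27K negative cells, where it rose by 0.64 ± 0.10 (SE). That call was lost without the tumour block (adjusted p = 0.142).

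Of the enzyme that the kinases act on, 1 subunit rose in 4T07 and the other fell in EMT6. Pdha1, the alpha subunit that is phosphorylated, had 274, 386, 319 and 318 CPM in p27K high cells, against 219, 239.7, 243 and 222 CPM in p27K negative cells in 4T07, where it rose by 0.48 ± 0.09 (SE, adjusted p = 0.00342). Its D2A1 levels were 140.0, 146, 128 and 133 CPM in p27K high cells, against 150.0, 151, 160.0 and 124 CPM in p27K negative cells, and in EMT6 259.8, 259, 249.5 and 263 CPM in p27K high cells, against 257, 245, 249.9 and 239.9 CPM in p27K negative cells. Neither was called (log2 -0.083 ± 0.12 and 0.056 ± 0.04), and the 3 changes differed (adjusted p = 0.00745). Pdhb, the beta subunit, fell in EMT6, at 90.5 to 100.0 CPM in p27K high against 103 to 129.6 CPM in p27K negative cells, and moved by 0.042 ± 0.08 and 0.049 ± 0.11 in 4T07 and D2A1 (SE, not called). Dlat, Dld and Pdhx, genes of other parts of the complex and not members, fell in EMT6 (log2 -0.24, -0.27 and -0.57). Pdhx fell in 4T07 as well (-0.38). Dlat (-0.022) and Dld (0.35) were not called in 4T07, and none of them was called in D2A1 (-0.25, -0.29 and -0.31). Within a library Pdk1 reads gained on Pdha1 reads by 0.68 ± 0.28 log2 units (SD), in 12 of 12 tumours (exact permutation p = 0.000488, adjusted 0.00155). The shift was 0.46, 0.97 and 0.61 in 4T07, D2A1 and EMT6. Ldha reads gained on Pdha1 reads by 0.40 ± 0.33 (SD), also in 12 of 12 tumours and with the same p, and least in EMT6 and 4T07 (0.23 and 0.25).

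Pdp1, a phosphatase that reactivates the complex, differed between lines (adjusted p = 0.00565). It rose in EMT6, with 25.2, 29.8, 30.1 and 31.4 CPM in p27K high cells, against 19.5, 16.6, 18.4 and 14.6 CPM in p27K negative cells. D2A1 had 21.7, 20.6, 20.7 and 25.8 CPM in p27K high cells, against 11.1, 21.1, 14.9 and 17.7 CPM in p27K negative cells, with a p27K negative library of tumour 2 inside the p27K high range. In 4T07 it had 13.0, 17.5, 13.1 and 13.5 CPM in p27K high cells, against 14.1, 16.1, 17.8 and 17.2 CPM in p27K negative cells. The log2 changes were 0.76 ± 0.11 in EMT6 (SE, adjusted p = 0.000361), 0.45 ± 0.18 in D2A1 (adjusted p = 0.0792) and -0.20 ± 0.13 in 4T07 (adjusted p = 0.234), beside 0.66 ± 0.07, 0.89 ± 0.12 and 0.94 ± 0.08 for Pdk1. The D2A1 change of Pdp1 was called with no filter on low counts (adjusted p = 0.0313) and the 4T07 change without tumour 2 (adjusted p = 0.0215). The Pdk1 to Pdp1 ratio shifted by 1.14, 0.42 and -0.092 log2 units in 4T07, D2A1 and EMT6, and by 0.49 ± 0.66 (SD) over 12 tumours, 8 of them upward (exact permutation p = 0.0308, adjusted 0.0531). Pdp2, a further phosphatase of the complex and not a member, averaged 16.6 against 12.0 CPM in 4T07, where it rose. Its log2 change there was 0.47 ± 0.11 (SE, adjusted p = 0.0121). It was not called in D2A1 (0.032 ± 0.16) or EMT6 (-0.11 ± 0.07), and no ratio with Pdp2 was formed. Mpc1 and Mpc2, the subunits of the mitochondrial pyruvate carrier, were not called in any line, with log2 changes between -0.19 and 0.09, and the widest SE was 0.28 for Mpc1 in 4T07.

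Gys1 and Gbe1, both enzymes that build glycogen, rose in each line. Gys1, the glycogen synthase of muscle and most other tissues, had 175, 123, 152 and 132 CPM in p27K high cells, against 96.0, 80.9, 89.2 and 83.1 CPM in p27K negative cells in 4T07. The D2A1 levels were 125, 146, 134 and 146 CPM in p27K high cells, against 62.4, 66.0, 52.6 and 67.8 CPM in p27K negative cells. Its EMT6 levels were 175, 215, 197 and 233 CPM in p27K high cells, against 99.4, 132, 128 and 146 CPM in p27K negative cells. No gates overlapped. Its log2 change was 0.73 ± 0.08, 1.15 ± 0.12 and 0.71 ± 0.05 (SE), and that of D2A1 exceeded that of 4T07 by 0.46 (adjusted p = 0.00994) and that of EMT6 by 0.50 (adjusted p = 0.0234).

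Gbe1, the glycogen branching enzyme (chr16:70313949-70569716, plus strand), had 138, 231, 76.5 and 118 CPM in p27K high cells, against 42.2, 44.4, 32.1 and 36.6 CPM in p27K negative cells in 4T07. The D2A1 libraries had 56.0, 62.4, 43.0 and 66.1 CPM in p27K high cells, against 37.1, 48.2, 35.4 and 27.1 CPM in p27K negative cells. In EMT6 there were 105, 137, 142 and 145 CPM in p27K high cells, against 74.7, 89.4, 106 and 93.9 CPM in p27K negative cells. Tumour 2 had the highest p27K high level and tumour 3 the lowest in 4T07, and the gates overlapped in D2A1 and in EMT6. The log2 change of 1.76 ± 0.17 in 4T07 exceeded that of D2A1 (0.68 ± 0.17) by 1.02 (adjusted p = 0.00528) and that of EMT6 (0.54 ± 0.05) by 1.25 (adjusted p = 0.00112). The D2A1 call was lost without tumour 4 (log2 0.40, adjusted p = 0.104). The log2 ratio of Gbe1 to Gys1 shifted by 1.03, -0.52 and -0.17 in the order 4T07, D2A1 and EMT6, upward in 4 of 4, 1 of 4 and 0 of 4 tumours. Within a line of 4 tumours no exact test can reach an adjusted p under 0.05, so none is given.

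Phosphoglucomutase links glucose 6-phosphate to glycogen, and the counts listed under the symbols Pgm1 and Pgm2 moved apart. The count listed as Pgm2 had 243, 217, 203 and 204 CPM in p27K high cells, against 127, 113, 116 and 99.7 CPM in p27K negative cells in 4T07. In D2A1 it had 149, 176, 179 and 185 CPM in p27K high cells, against 86.9, 92.2, 87.5 and 91.4 CPM in p27K negative cells. EMT6 had 220.2, 262, 261 and 266 CPM in p27K high cells, against 144, 161, 184 and 183 CPM in p27K negative cells. It rose by 0.93 ± 0.08, 0.95 ± 0.11 and 0.59 ± 0.05 on the log2 scale (SE), with no overlap of gates. The count listed as Pgm1 had 27.8 to 33.1 CPM in p27K high against 33.2 to 39.0 CPM in p27K negative cells of 4T07, 54.9 to 70.7 against 60.9 to 78.1 CPM in D2A1 and 72.1 to 89.7 against 93.3 to 111 CPM in EMT6, where it fell by 0.29 ± 0.08 (SE), a call lost without tumour 2 (adjusted p = 0.0615). In 4T07 its change was called with total-count scaling (adjusted p = 0.0097), with a filter of at least 5 CPM in 4 libraries (0.0355) and without tumour 2 (0.00833). The Pgm2 to Pgm1 ratio was higher in p27K high cells by 1.03 ± 0.25 (SD), in 12 of 12 tumours (exact permutation p = 0.000488, adjusted 0.00155), the largest shift among the 11 pairs with at least 10 counts in every library. The mouse symbols Pgm1 and Pgm2 changed places between annotation versions, so which of the genes a symbol counts here cannot be told. The rise can therefore not be assigned to the gene that serves glycogen.

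Pygl, the liver-type glycogen phosphorylase that breaks glycogen down, was scarce and fell in 4T07. Its level there was 0.952, 1.99, 1.27 and 1.49 CPM in p27K high cells, against 4.24, 6.53, 12.4 and 8.40 CPM in p27K negative cells, a log2 change of -2.41 ± 0.27 (SE, adjusted p = 0.000453) with no overlap of gates. The macrophage marker sum fell beside it, as given above, and their part was not tested. Tumour 3 was highest in both in the p27K negative gate. In D2A1 and EMT6 Pygl was under 1 CPM in every library and was not tested per line. The log2 ratio of Pygl to Gys1 moved by -3.13 in 4T07 p27K high cells, downward in 4 of 4 tumours.

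**Figure D4:**
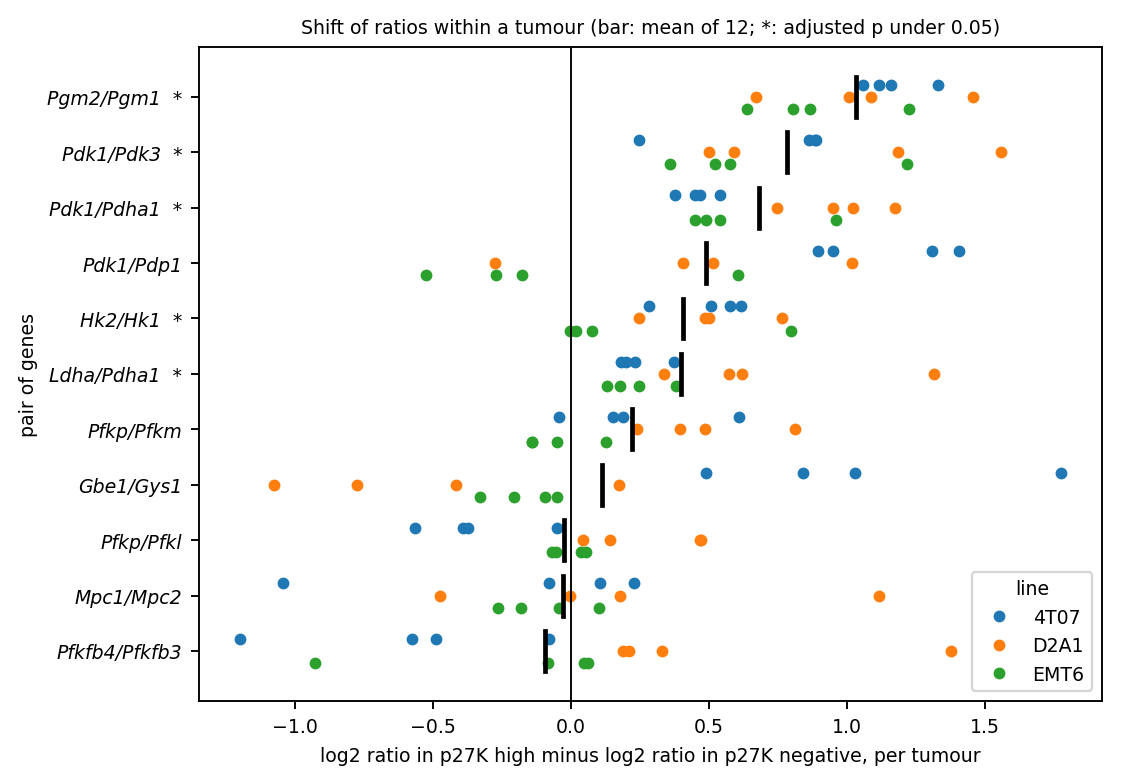
Shift of the log2 read ratio of 11 pairs of genes between gates (p27K high minus p27K negative) for each tumour, coloured by line, with a black bar at the mean of 12 tumours and an asterisk at an adjusted p under 0.05. The ratios of Pgm2 to Pgm1, Pdk1 to Pdk3, Pdk1 to Pdha1 and Ldha to Pdha1 lie right of 0 in all 12 tumours, whereas those of Gbe1 to Gys1 and Pfkp to Pfkl spread to both sides by line.

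Of 19 ratios, 11 had at least 10 counts of both genes in every library, and 5 of these shifted at an adjusted p under 0.05: Hk2 to Hk1, Pdk1 to Pdk3, Pdk1 to Pdha1, Ldha to Pdha1 and Pgm2 to Pgm1. The other 6 were not called. A ratio within a library does not depend on scaling, but it shows unequal change and not which gene moved.

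The size of the change differed between lines for 18 of the 37 genes (adjusted p under 0.05), while 24.5% of all tested genes differed. Without the tumour block the number was 10, and the 24.5% does not apply to that fit. The share of all genes without the block is not given here, so an excess of members there cannot be told. Pygl, among the 18, had too few counts for a test when D2A1 and EMT6 were fitted alone (at most 5 and 10 counts in a library). By adjusted p the leading genes were Slc16a3, Gbe1, Slc2a1, Eno2 and Aldoc. Among the 19 genes that rose in all 3 lines, the rise was smallest in EMT6 for 17, in 4T07 for 2 and in D2A1 for 0. Over all 691 genes that rose in the 3 lines, it was smallest in EMT6 for 54.3%. The plot of fitted changes shows the EMT6 points to the left of the others at most steps from glucose entry to lactate.

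**Figure D5:**
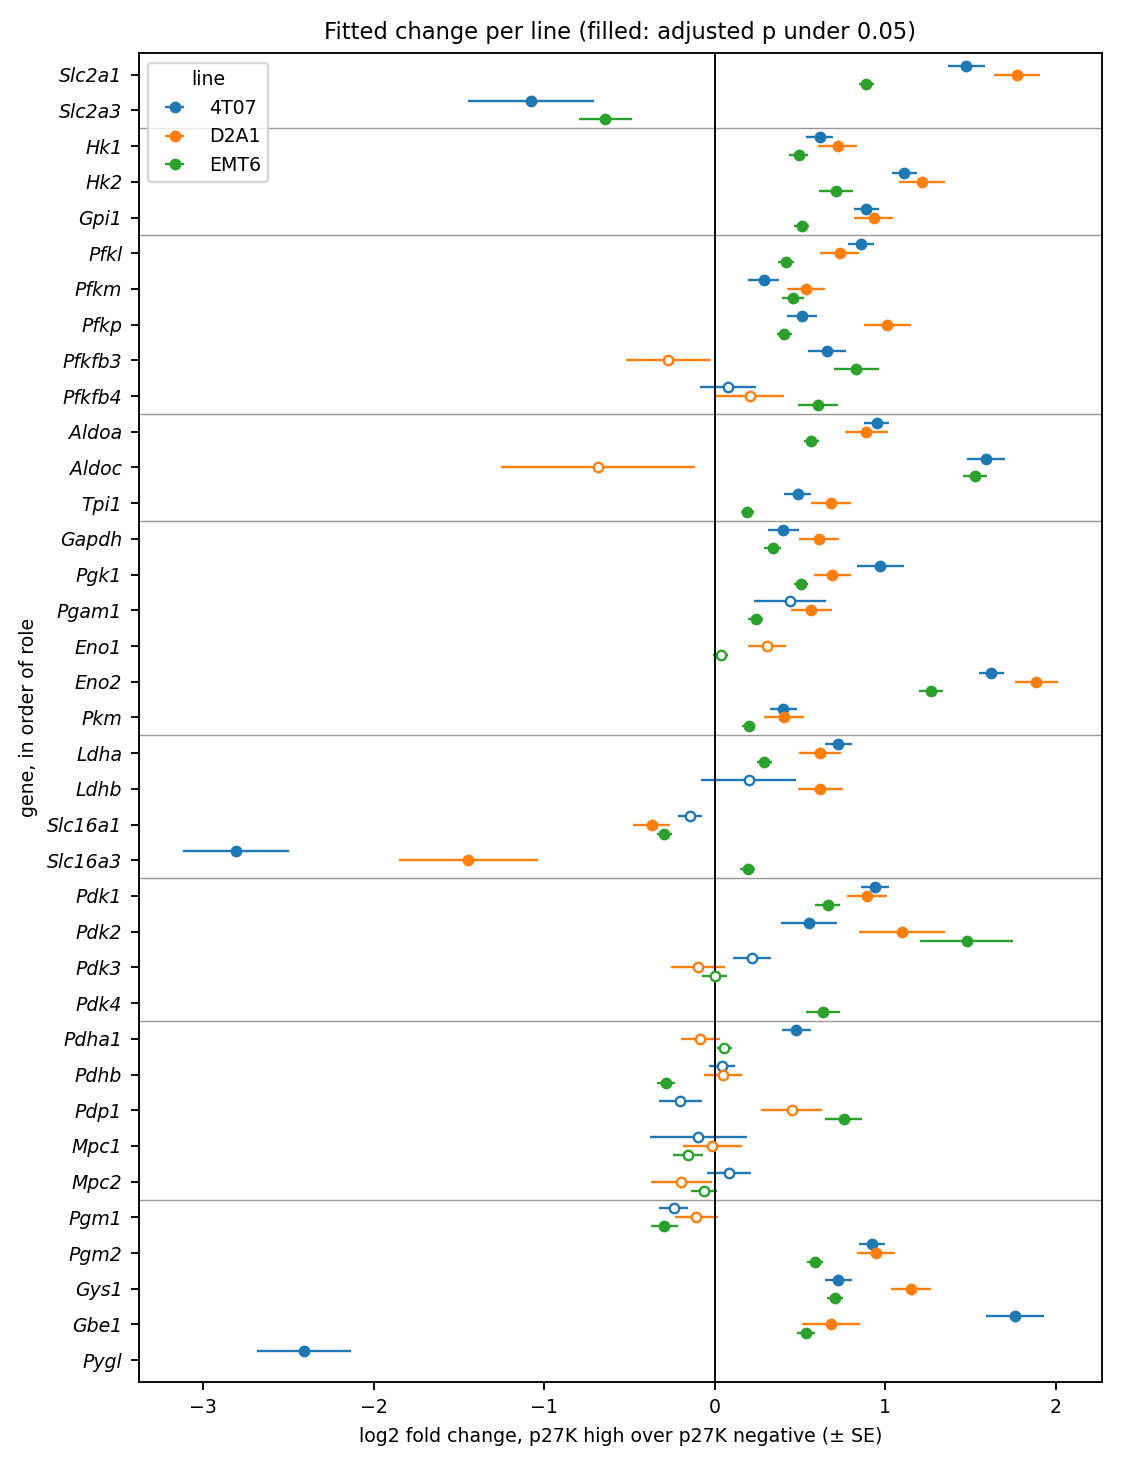
Fitted log2 fold change of p27K high over p27K negative cells with its SE for the 37 genes by role, in 4T07, D2A1 and EMT6. Filled points have an adjusted p under 0.05 and genes with too few counts in a line have no point. Eno2 and Slc2a1 in D2A1 and Gbe1 in 4T07 lie farthest right, at 1.89, 1.77 and 1.76, and Slc16a3 and Pygl in 4T07 farthest left, at -2.81 and -2.41.

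Few genes of the TCA cycle and the pentose phosphate pathway rose. The counts of this and the next lists stand beside the shares of all genes, of which 22.1%, 14.9% and 24.1% rose and 23.6%, 14.7% and 25.1% fell in 4T07, D2A1 and EMT6. Of 18 TCA cycle genes, 0 rose and 11 fell in 4T07, 1 rose and 5 fell in D2A1, and 0 rose and 16 fell in EMT6, and their median log2 changes were -0.30, -0.24 and -0.31. Idh3a, a subunit of isocitrate dehydrogenase, fell in all 3 lines, by 0.52, 0.78 and 0.63 on the log2 scale. Sdhb, a subunit of succinate dehydrogenase, fell by 0.74, 0.48 and 0.39. Citrate synthase, Cs, was the gene that rose in D2A1 (0.55), and it fell in 4T07 (-0.31) and EMT6 (-0.27). Of 10 pentose phosphate genes, 2 rose and 5 fell in 4T07, 1 and 2 in D2A1, and 1 and 7 in EMT6, with median log2 changes of -0.24, -0.16 and -0.22. Their rises in 4T07 and D2A1 and their falls in D2A1 were near the shares of all genes. Prps1, which makes the ribose donor of nucleotide synthesis, fell by 0.35, 0.87 and 0.63. The 8 markers of cycling cells all fell in each line, with summed levels of 226 to 287 CPM in p27K high against 4070.0 to 5411 CPM in p27K negative cells of 4T07, 278 to 337 against 2817 to 3318 CPM in D2A1 and 250.1 to 283 against 2101 to 2400.0 CPM in EMT6. Their part in these falls was not tested.

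Of 23 further glycolytic and sugar transport genes, 14 were tested in 4T07 with 1 rise and 7 falls, 15 in D2A1 with 2 and 1, and 13 in EMT6 with 2 and 4. Their median log2 changes were -0.35, 0.30 and -0.073, and a difference from the 37 was not tested. Pfkfb2 rose in 4T07 (0.78) and EMT6 (0.40) and was not called in D2A1 (0.49). Eno3, a further enolase gene, fell in 4T07 (-0.48) and D2A1 (-0.93) and was not called in EMT6 (-0.073). Pfkfb1 fell in 4T07 (-1.40) and EMT6 (-0.53) and was not called in D2A1 (-0.80). Hk3, the hexokinase of myeloid cells, was tested in 4T07 alone and fell there (-3.09), beside the macrophage markers, whose part was not tested. Its average change was not called (adjusted p = 0.0582). Of 15 further pyruvate and lactate genes, 3 of 13 tested rose and 5 fell in 4T07, 1 and 2 of 12 in D2A1, and 2 and 6 of 13 in EMT6, with median log2 changes of -0.022, -0.22 and -0.27. Bsg, the chaperone that MCT1 and MCT4 need to reach the membrane, rose in all 3 lines (0.45, 0.67 and 0.65), and Me2, mitochondrial malic enzyme, fell in all 3 (-0.80, -0.60 and -0.36). Of 7 gluconeogenesis genes 3, 3 and 5 were tested in 4T07, D2A1 and EMT6, and Slc37a4, the glucose 6-phosphate carrier, rose in each line (0.63, 0.97 and 0.36).

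Of 21 glycogen genes beyond the 5 members, 15 were tested in 4T07 with 6 rises and 4 falls, 13 in D2A1 with 3 and 0, and 13 in EMT6 with 4 and 3. The EMT6 counts were near the shares of all genes, and the median log2 changes were -0.071, 0.082 and 0.033. Gyg, glycogenin, which primes new glycogen, was not called in any line (-0.071, -0.083 and -0.0089). Gaa, the lysosomal glucosidase that degrades glycogen, rose in all 3 lines (0.60, 0.84 and 0.84). Ugp2, which makes the UDP-glucose that Gys1 uses, rose in 4T07 (0.78) and EMT6 (0.35) and was not called in D2A1 (0.29). Pygb, the brain-type phosphorylase, fell in 4T07 (-0.55) and EMT6 (-0.32).

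Genes that textbooks list as induced by hypoxia moved with the members. Of 12 such reference genes, 11 rose and 1 fell in 4T07, 10 of 11 tested rose in D2A1 and 11 of 12 rose in EMT6, with median log2 changes of 1.37, 1.47 and 0.83. Ndrg1 rose by 2.13, 1.75 and 1.39, Vegfa, which drives vessel growth, by 1.28, 1.47 and 1.04, and Bnip3, a mitophagy receptor, by 1.93, 1.67 and 0.92. Adm, adrenomedullin, fell in 4T07 (-2.08) and rose in EMT6 (0.69). Of 17 regulators of glycolytic transcription, 16, 16 and 14 were tested, with 6 rises and 1 fall in 4T07, 5 and 1 in D2A1 and 8 and 1 in EMT6. Egln1, a prolyl hydroxylase that marks HIF for decay, rose by 0.87, 0.90 and 0.49, and Foxk2, a forkhead factor tied to aerobic glycolysis, fell by 0.58, 0.58 and 0.35. Hif1a itself was not called in any line (0.36, 0.12 and 0.10). These lists were chosen with earlier results of the same libraries known, so their directions are a description.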

How the data were processed

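RNA-seq libraries of 24 sorted samples were compared, p27K high and p27K negative cells of 4 tumours in each of 3 lines. The authors deposited raw read counts per gene in 1 table per line. Per the submitters' processing notes the genome build was mm10 and DESeq2 was used, with no version, while aligner, counting tool and strand setting are details not given in the sources used here. Members and lists, 37 genes and those of nearby pathways, were chosen with earlier results of these data known. Rows were matched by symbol, and counts were scaled to CPM by TMM within each line, so levels are not compared between lines.

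Each line was fitted over all genes kept by filterByExpr with edgeR 4.0.16 (limma 3.58.1, R 4.3.3), using the quasi-likelihood test with the tumour as a block and Benjamini-Hochberg adjustment. A fit over all 24 libraries and the symbols shared by the tables, with a gate term per line, gave the average change and the difference between lines. The p-values of these fits and of the ratio tests measure how the difference between gates varied from tumour to tumour. No label names further replicates of a tumour. Log2 ratios of 2 genes within a library used counts plus 0.5, and the 12 tumour differences were tested by all 4096 sign flips with Python 3.11.15. The labels give both gates of a 4T07 or D2A1 tumour the same tumour number, and the EMT6 columns carry the numbers 0, 1, 2 and 4. Deviations of same-numbered libraries from their gate means, over 5000 genes, correlated at 0.574 to 0.813 in EMT6, 0.195 to 0.801 in 4T07 and 0.0834 to 0.294 in D2A1. Same-numbered libraries were each other's best match within the line in every tumour except 4T07 tumour 4 (0.195). The fits were tested on simulated data with known changes. Alternatives were DESeq2 1.42.0, its size factors, total-count scaling, other filters on low counts, no block, and leaving out each tumour or line.

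Values of every library are given for the members with the smallest p in each role, for the average change and for a difference between lines, and for both genes of pairs whose ratio was called. Some further members (Gpi1, Pfkfb3, Pgam1, Slc16a1 and others) were added after their values were seen. CPM per kilobase used the exon length of GENCODE vM21 on GRCm38, and Pgm1 and Pgm2 were left out of it.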

Additional observations from a re-analysis of the deposited data

Results flagged for a closer look

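In 13 of 104 sets of 4 tumours, 1 tumour's log2 difference between p27K high and p27K negative cells stood apart from the other 3 by Dixon's criterion, which chance alone meets in about 1 of 20 sets. In 4T07 tumour 2, Pgam1 differed by -0.50 (0.66 to 0.79 in the others), Pfkfb4 by -0.52 (0.19 to 0.32) and Pfkm by 0.060 (0.34 to 0.39). The p27K high library of that tumour was the one with 13500 detected genes. In 4T07 tumour 4, Mpc2 differed by 0.46 (-0.09 to -0.0039). In D2A1 tumour 3, Ldha differed by 1.00 (0.44 to 0.53), Pfkl by 0.95 (0.65 to 0.69), Pkm by 0.65 (0.31 to 0.35) and Aldoc by 4.72 (-1.34 to -0.53), the last against a p27K negative library with 0 counts, so that its size depends on the value added to counts. In EMT6 tumour 0, Aldoc differed by 1.82 (1.42 to 1.47), Pdk1 by 0.98 (0.54 to 0.58) and Pfkfb3 by 1.47 (0.57 to 0.66). In EMT6 tumour 2, Eno1 differed by -0.073 (0.06 to 0.08) and Pfkm by 0.23 (0.51 to 0.56).

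The change between gates differed between the 3 lines for 18 genes in edgeR's quasi-likelihood test over 24 libraries. Their adjusted p-values were 1.13e-05 for Slc16a3, 0.00114 for Gbe1, 0.00115 for Slc2a1, 0.00484 for Eno2, 0.00508 for Aldoc and 0.00565 for Pdp1. For Pfkp, Pdha1, Gys1, Gpi1, Tpi1 and Pfkl they were 0.00628, 0.00745, 0.00875, 0.0109, 0.0116 and 0.0145. For Pgm2, Pdhb, Pygl, Ldha, Hk2 and Pfkfb3 they were 0.0158, 0.0214, 0.0289, 0.0317, 0.0396 and 0.0403. The counts of Pygl were too few for a test in D2A1 or EMT6 fitted alone, with at most 5 and 10 in any library. Line and sequencing run cannot be told apart in these differences. Slc16a3 and Pygl moved beside the macrophage markers in 4T07, whose part was not tested.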

How the results depend on the processing

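No member or ratio changed direction with a call under any alternative run. The count of risen members stayed within 1.5 times under all of them: 22 in 4T07 (19 to 25 leaving out a tumour), 21 in D2A1 (19 to 22), 26 in EMT6 (26 each time) and 25 on average (22 to 26 leaving out a tumour or line). Falls were fewer and moved more. In 4T07 there were 3, against 5 with total-count scaling and 2 to 6 leaving out a tumour, with 6 without tumour 2. In D2A1 there were 2, against 1 with no filter, 1 with a filter of at least 5 CPM in 4 libraries and 0 to 2 leaving out a tumour, with 0 without tumour 1 or 2. On average there were 4, against 2 without the line 4T07, and 2 to 5 leaving out a tumour or line. Without the tumour block, the members that rose numbered 21 in 4T07, 22 in D2A1, 22 in EMT6 and 25 on average, and those whose change differed between lines 10, not 18 (12 to 21 leaving out a tumour). The shares of all genes without the block are not given here. The ratio calls numbered 8, and 10 without the block (8 to 11 leaving out a tumour or line). The cause of these moves was not tested. The p27K negative libraries of D2A1 tumours 1 to 3 were the shallowest, at 1335433 to 2110563 counts, and limit Aldoc, Slc16a3 and Pdk2 there.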
